A study of Homo sapiens with 8 samples.

Results

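The claudins CLDN1, CLDN2, CLDN3, CLDN4 and CLDN7, the membrane proteins OCLN (occludin) and F11R (junctional adhesion molecule A), and the scaffold proteins TJP1 (ZO-1) and TJP3 (ZO-3) were chosen by name as claudins and tight junction proteins. Of these 9 genes, 7 had at least 1 named probe among the 16578 named genes on the array, with 8 probes in all, 2 of them for OCLN. TJP3 and F11R have no probe named for them in the annotation used and were not analysed here. Signals came from Caco2, a human colon carcinoma line, and WM115, a human melanoma line, each sorted by flow cytometry with AC133, an antibody to an epitope of CD133 (the PROM1 protein). The AC133 high groups held the brightest 10% of cells and the AC133 negative groups the unstained cells. Each line was sorted 2 times, so each of the 4 groups had 2 arrays, 8 in all. All Caco2 cells, high and negative, carried a lentiviral reporter of enhanced green fluorescent protein under the mouse Melk promoter. The virus was added at passage 10, and 2 clones were taken on for the experiments, but the clone behind each sort is not given. No engineered change is given for WM115. Both lines were detached with trypsin and EDTA before staining, and doublets and dead cells were gated out. Each line is 1 culture, or 1 set of clones, of 1 tumour.

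Tight junctions are belts near the apical edge of epithelial cells that seal the space between neighbours. Claudins form their strands: some, such as CLDN1, CLDN3 and CLDN4, are known mainly for tightening the seal, whereas CLDN2 forms pores for small cations and water. OCLN lies in the same strands, F11R is an adhesion protein of the immunoglobulin superfamily, and TJP1 and TJP3 are PDZ-domain scaffolds that tie the membrane proteins to actin. In the gut, CLDN7 is also found along the lateral membrane, where it binds EPCAM. Caco2 cells are widely used as a model of the intestinal barrier, whereas melanocytes and melanoma cells are not epithelial and build no such belt.

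The promoters of these genes are shown because the transcription factors followed below are known to act on epithelial junction genes through such sequences. The sequences are RefSeq's, on GRCh38.p14. The table used held 15 windows for 8 of the 9 genes, and the 250 bases before each transcription start were searched on both strands for 5 short motifs. The E-box CAGGTG is the element that repressors of the SNAI and ZEB families are known to bind, and it reads CACCTG on the other strand. It lay in windows of 4 of the 8 genes, CLDN7, OCLN, TJP1 and TJP3, and in 5 of their 15 windows, against 17.5% of the 35116 windows of the whole table. The GC box GGGCGG, an element of the Sp1 family that reads CCGCCC on the other strand, lay in windows of 7 of the 8 genes, CLDN2 being the exception, and in 10 of the 15 windows, against 42.6% of all windows. The TATA box TATAAA, the grainyhead motif AACCGGTT and the caudal homeobox core TTTATG, the last bound by CDX2, lay in 0 of the 15 windows, against 10.7%, 0.117% and 9.64% of all windows. No motif searched is contained in another. A match describes the letters of a window and is not evidence of binding.

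CLDN1 and CLDN3, whose signals differed most between the AC133 gates in Caco2, are given over all 250 bases, with every GC box in capitals. CLDN1 lies on the minus strand at chr3:190322447-190322696, with GC boxes 88 and 40 bases before the start. CLDN3 lies on the minus strand at chr7:73770271-73770520, with 4 GC boxes, 220, 199, 67 and 58 bases before the start.
CLDN1: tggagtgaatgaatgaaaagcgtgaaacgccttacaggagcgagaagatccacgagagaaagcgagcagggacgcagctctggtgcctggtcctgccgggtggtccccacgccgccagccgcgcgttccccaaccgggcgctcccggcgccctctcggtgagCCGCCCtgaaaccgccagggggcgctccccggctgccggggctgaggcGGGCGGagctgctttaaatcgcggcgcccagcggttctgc
CLDN3: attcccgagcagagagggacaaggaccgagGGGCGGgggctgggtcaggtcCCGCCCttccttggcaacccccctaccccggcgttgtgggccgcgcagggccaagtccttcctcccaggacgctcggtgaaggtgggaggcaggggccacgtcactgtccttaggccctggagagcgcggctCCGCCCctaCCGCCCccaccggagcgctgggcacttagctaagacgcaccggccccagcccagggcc
CLDN3 and CLDN4 are neighbours on chromosome 7, with 0 protein-coding genes between them. The E-box stretches of CLDN7, OCLN and TJP1 are given as 30 bases each, with the E-boxes in capitals. That of CLDN7 is at chr17:7262479-7262508 on the minus strand and ends at the base before the start; its window held 4 E-boxes, 174, 135, 20 and 9 bases before the start, the last 2 of which fall in this stretch. That of OCLN is at chr5:69492502-69492531 on the plus strand, with the E-box 33 bases before the start. That of TJP1 is at chr15:29969120-29969149 on the minus strand, with the E-box 88 bases before the start. CLDN7 and TJP1 have other starts, and the windows of those starts held no E-box. Both windows of OCLN held 1.
CLDN7: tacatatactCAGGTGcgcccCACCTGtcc
OCLN: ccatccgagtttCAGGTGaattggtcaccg
TJP1: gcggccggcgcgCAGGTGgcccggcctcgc

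Between 53.7% and 59.2% of probes were detected per array, that is, had a detection p under 0.05 against the negative control probes of the array. PROM1, the sorted gene, stood at normalized log2 signals of 10.95 and 11.12 in AC133 high Caco2 cells against 6.65 and 7.06 in negative ones, and at 9.60 and 9.54 against 5.72 and 6.22 in WM115. Of 10 intestinal epithelial markers, 9 were detected on all 4 Caco2 arrays and 7, among them CDH1, KRT20, VIL1 and CDX2, on no WM115 array. Of 7 melanocyte markers, 6 were detected on all 4 WM115 arrays, and MLANA, TYR, TYRP1, SOX10 and S100B on no Caco2 array. The WM115 negative array of sort 2 stood apart: over the tested probes it correlated with the other 3 arrays of its line at r = 0.971 to 0.976, whereas those 3 correlated with each other at 0.986 to 0.990. Levels below are given per array, first as the deposited signal in intensity units and then as log2 after background correction and quantile normalization. The lowest normalized signal of a detected probe was 4.68 to 4.84 per array. Levels of different genes were read by different probes and are not ranked against each other.

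CLDN1 was higher in AC133 high than in AC133 negative Caco2 cells and was not detected in WM115. Its deposited signal was 2058 units in the high cells of sort 1 and 1392 in those of sort 2, against 846 and 748 in the negative cells of the same sorts. Both high arrays therefore lay above both negative arrays. All 4 WM115 arrays read between 30.4 and 36.6 units, and none was detected. After normalization CLDN1 stood at 10.78 ± 0.04 (SD, n = 2) in the high and 9.64 ± 0.24 in the negative Caco2 cells. The difference was 1.14 log2 units (SE 0.16, 95% interval 0.77 to 1.52), or 2.21-fold, with a limma adjusted p of 0.0239. It was 1.29 in sort 1 and 1.00 in sort 2. The SE, interval and adjusted p rest on a spread shared with the WM115 groups. There the undetected probe had an SD of 0.009 in the high and 0.04 in the negative cells. That part of the spread is the scatter of background and not of the transcript. In RNA of a whole sorted population, fewer cells with the transcript and less transcript per cell cannot be told apart.

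The CLDN1 call depended on the arrays and settings used. Over the 18 alternatives run, the difference lay between 0.97 and 1.31 log2 units. Alternatives that change only the filter, the spread, the test or the WM115 arrays cannot move it, and they repeat 1.14. Those that can move it gave 0.97 to 1.31 without 1 Caco2 array. Other scalings or background settings gave 1.08 to 1.13. With the sort as a block, which takes up what arrays of the same sort share, the adjusted p was 0.0551. Leaving out the Caco2 high array of sort 1, the negative array of sort 1 or the high array of sort 2 gave adjusted p-values of 0.156, 0.165 and 0.237, and leaving out the negative array of sort 2 gave 0.0396. Leaving out 1 WM115 array changes only the shared spread and its degrees of freedom. The call was lost without either WM115 high array and kept without either WM115 negative array. Median scaling in place of quantile normalization gave 1.13 with an adjusted p of 0.0911, and the 4 Caco2 arrays alone gave 0.15. Of the 18 alternatives, 9 kept the adjusted p under 0.05 and 9 did not, over a range of 0.0181 to 0.671.

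**Figure D1:**
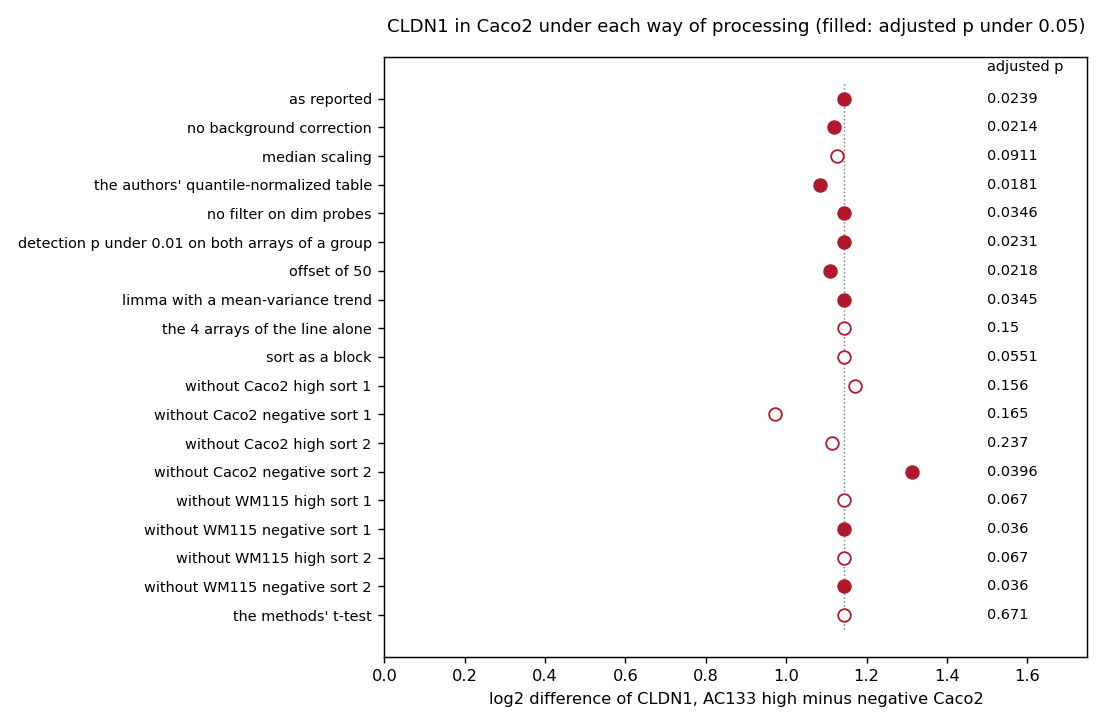
Log2 difference of CLDN1 between AC133 high and negative Caco2 cells (x axis) as reported and under each of 18 alternatives (rows); filled points have an adjusted p under 0.05, and the adjusted p is printed at the right. All points lie between 0.97 and 1.31, and 9 of the 18 alternatives are open. Points at 1.14 belong to alternatives that leave the Caco2 values as they were, so they repeat the reported difference by construction.

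Of the marker lists of other cell types, the leukocyte list had a summed signal that did not overlap between the Caco2 gates. Taken singly, 38.9% of all named genes tested did not overlap between these gates either. Of 5 leukocyte markers with a probe, 3 were detected on both arrays of each gate. The summed signal of the 5 was 3134 to 3350 units in the high and 4827 to 5365 in the negative cells. In a sum of linear signals the brightest gene weighs most. CD3E was detected on no Caco2 array and PTPRC on neither high array. Whether any leukocytes were present was not tested. Of 6 fibroblast markers, 3 were detected on both high arrays and 2 on both negative arrays, with sums of 588 to 1025 and 373 to 624 units, which overlapped; COL1A2 and DCN were detected on no Caco2 array. The summed signals of 6 endothelial markers overlapped, at 251 to 265 units in the high and 255 to 264 in the negative cells. The sums of 10 intestinal epithelial markers overlapped as well, at 29108 to 39915 and 29996 to 34992 units. The part of these markers in the CLDN1 result was not tested.

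CLDN2, the pore-forming claudin, was detected on all 4 Caco2 arrays and did not pass the test between the gates. Its deposited signal was 483 and 360 units in the high cells of sorts 1 and 2, and 274 and 354 units in the negative cells. The negative array of sort 1 was the low one; the negative array of sort 2 lay above the high array of sort 1 after normalization, so the gates overlapped. The normalized levels were 8.73 ± 0.15 (SD, n = 2) and 8.26 ± 0.62. Their difference of 0.47 log2 units (SE 0.27, 95% interval -0.14 to 1.09) had a limma adjusted p of 0.809, and it was 0.81 in sort 1 and 0.14 in sort 2. In WM115 CLDN2 read 38.0 to 45.9 units and was detected on 1 of 4 arrays, the high array of sort 1.

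CLDN3 had lower values in the AC133 high cells of Caco2 in both sorts, without passing the test over all probes. Its deposited signal was 62.2 and 56.2 units in the high cells and 86.4 and 80.4 units in the negative cells of sorts 1 and 2. The gates did not overlap, but all 4 values were close to background. The normalized difference was -0.73 log2 units (SE 0.17, 95% interval -1.13 to -0.33), with an unadjusted limma p of 0.0028 and an adjusted p of 0.172. The sorts gave -0.79 and -0.67. In WM115 CLDN3 read 40.1 to 53.4 units and was detected on 2 of 4 arrays, those of sort 2.

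CLDN4, the neighbour of CLDN3, was also dim in Caco2. It read 71.5 and 53.8 units in the high cells and 65.8 and 69.0 units in the negative cells of sorts 1 and 2. The gates overlapped, and the sorts differed in sign, at 0.04 and -0.42 log2 units. The fitted difference was -0.19 (SE 0.16, 95% interval -0.56 to 0.18), with a limma adjusted p of 0.944. No WM115 array detected CLDN4, at 33.8 to 39.3 units.

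CLDN7, the claudin that binds EPCAM, had nearly the same level in both Caco2 gates. It read 948 and 773 units in the high cells and 997 and 766 units in the negative cells of sorts 1 and 2. The arrays of the same sort were the closest to each other, and the gates overlapped. The normalized levels were 9.76 ± 0.24 (SD, n = 2) and 9.78 ± 0.09, a difference of -0.01 log2 units (SE 0.21, limma adjusted p 1). The 95% interval of -0.50 to 0.47 leaves room for a difference of that size in either direction. In WM115 CLDN7 read 34.3 to 51.0 units and was detected on 1 of 4 arrays, the negative array of sort 2 that stood apart.

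OCLN was read by 2 probes that did not give the same picture. One was detected on 0 of the 8 arrays, at 29.6 to 38.0 units, and was not tested. The other was detected on all 4 Caco2 arrays, at 75.1 and 59.3 units in the high cells and 62.8 and 62.4 units in the negative cells of sorts 1 and 2. After normalization both high arrays lay just above both negative arrays, at 5.55 ± 0.02 (SD, n = 2) against 5.35 ± 0.06. The difference of 0.20 log2 units (SE 0.14, 95% interval -0.12 to 0.52) had a limma adjusted p of 0.908. No WM115 array detected OCLN with this probe, at 34.8 to 39.1 units.

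TJP1, the scaffold that ties claudins and occludin to actin, was the only one of the 7 genes detected on all 8 arrays. In Caco2 it read 887 and 568 units in the high cells and 1275 and 626 units in the negative cells of sorts 1 and 2. The negative array of sort 1 was the highest, and after normalization both negative arrays lay above both high arrays, the second by a small margin. The levels were 9.50 ± 0.01 (SD, n = 2) in the high and 9.80 ± 0.37 in the negative cells. Their difference was -0.30 log2 units (SE 0.20, 95% interval -0.77 to 0.17), with a limma adjusted p of 0.888, and the sorts gave -0.57 and -0.04. In WM115 TJP1 read 49.3 to 55.5 units, close to the detection limit.

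**Figure D2:**
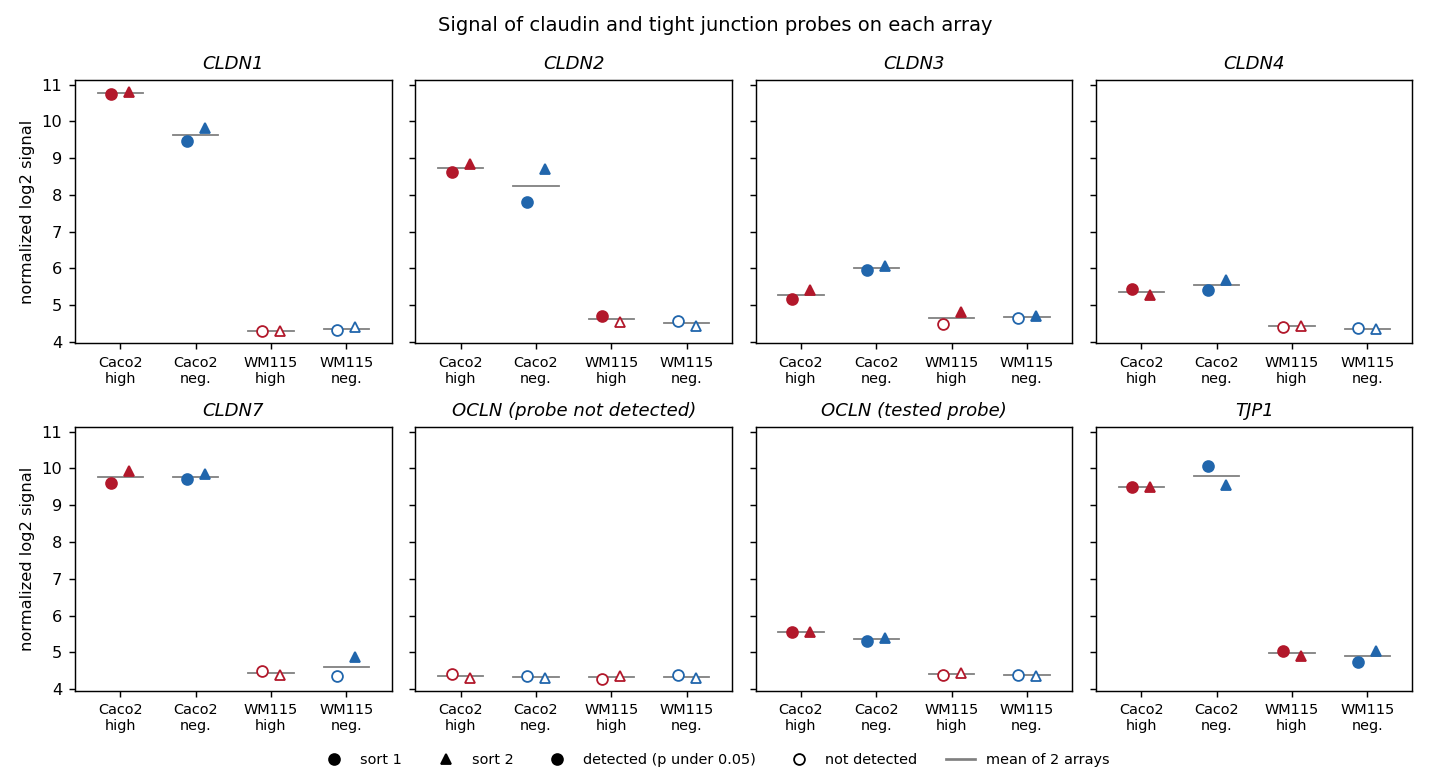
Normalized log2 signal (y axis) of each of the 8 probes on each of the 8 arrays, by line and gate; circles are sort 1, triangles sort 2, filled symbols are detected and grey lines are means of 2 arrays. CLDN1, CLDN2, CLDN7 and TJP1 lie far above their WM115 values on all Caco2 arrays, whereas CLDN3, CLDN4 and the tested OCLN probe lie between 5.16 and 6.07 in Caco2.

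Of the 7 genes tested, 1 was called higher and 0 lower in AC133 high Caco2 cells, where 0.624% of the 11214 named genes tested were called higher and 0.223% lower. At an unadjusted p under 0.05, which 7.90% of all named genes tested passed, there were 2, CLDN1 and CLDN3, in opposite directions. The gates did not overlap for 4 of the 7, with CLDN1 and OCLN above and CLDN3 and TJP1 below, against 38.9% of all named genes tested. The median difference of the 7 was -0.01 log2 units, and that of all named genes tested was -0.00. Of the 7 fitted differences, 3 were above 0 and 4 below, so the genes had no common direction between the Caco2 gates.

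None of the 7 genes was called between the WM115 gates by limma, and 0 had an unadjusted p under 0.05; of all named genes tested, 0.0178% were called in either direction and 5.03% had an unadjusted p under 0.05. The fitted differences lay between -0.18 log2 units for CLDN7 and 0.12 for CLDN2, with a median of 0.04 against 0.01 for all named genes tested. For CLDN1 the difference was -0.06 (95% interval -0.43 to 0.31), between probes that were not detected in either gate. For TJP1, the gene detected on every WM115 array, it was 0.08 (95% interval -0.39 to 0.55), with 0.30 in sort 1 and -0.13 in sort 2. The gates did not overlap for 3 of the 7 genes, CLDN4 and OCLN above and CLDN1 below, against 28.5% of all named genes tested, and these 3 were detected on no WM115 array.

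The difference between the lines in the AC133 contrast was tested directly. CLDN1 differed by 1.20 log2 units more in Caco2 (SE 0.23, 95% interval 0.67 to 1.73), with an unadjusted limma p of 0.000721 and an adjusted p of 0.2. CLDN3 gave -0.72 (SE 0.25), with an unadjusted p of 0.019 and an adjusted p of 0.651; 6.21% of all named genes tested had an unadjusted p under 0.05. None of the 7 genes was called, against 0.0713% of all named genes tested, and the other 5 had adjusted p-values of 0.977 to 0.998. The rise of CLDN1 in Caco2 is therefore not shown to differ from WM115, where the probe was not above background.

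**Figure D3:**
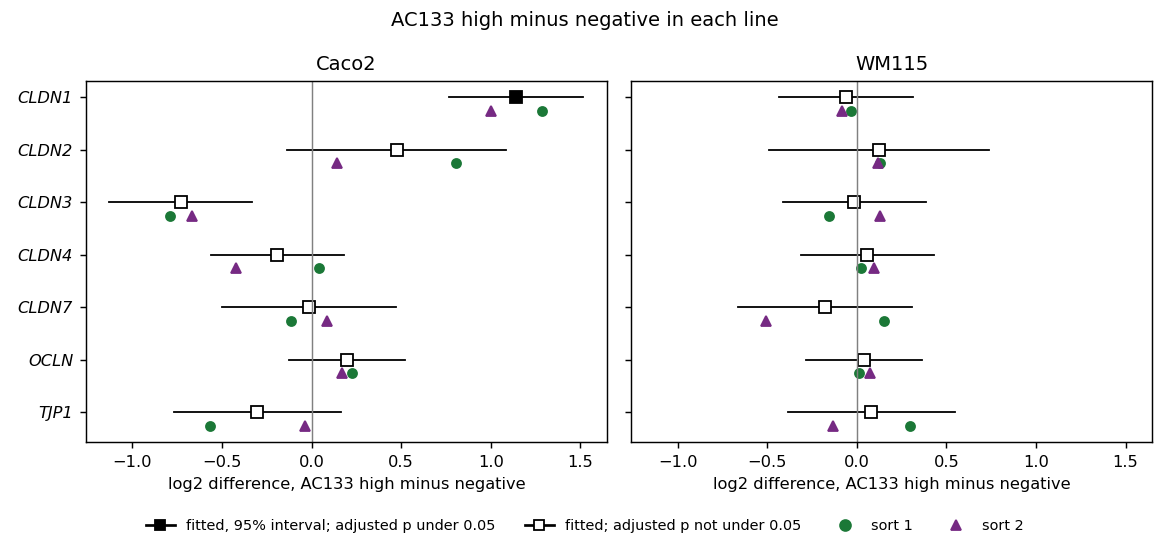
Log2 difference between AC133 high and negative cells (x axis) of the 7 tested genes in Caco2 (left) and WM115 (right); squares with bars are the fitted difference and its 95% interval, filled where the adjusted p is under 0.05, and circles and triangles are sorts 1 and 2. CLDN1 in Caco2, at 1.14, is the filled square, and the interval of CLDN3 in Caco2, -1.13 to -0.33, also lies off 0.

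All 7 genes were higher in Caco2 than in WM115, with no overlap between any Caco2 and any WM115 array, where 30.4% of all named genes tested were called higher in Caco2, 29.9% were called lower, and 28.7% lay above WM115 on every array. Genes with no signal in WM115 entered the test through their Caco2 arrays, so the count of 7 is a description. Since each line is 1 culture or set of clones, the spread behind these tests is that between sorts. The gaps were wide for some genes and small for others, as the plot of signal by array shows.

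CLDN1, CLDN7, TJP1 and CLDN2 had the wide gaps. CLDN1 stood at 10.21 ± 0.67 (SD, n = 4) in Caco2 and 4.34 ± 0.04 in WM115, at least 44.8-fold higher against the detection limit of the WM115 arrays (limma adjusted p 3.49e-09). CLDN7 stood at 9.77 ± 0.15 and 4.53 ± 0.24, 37.9-fold apart (1.75e-08). TJP1 stood at 9.65 ± 0.27 and 4.93 ± 0.14, 26.2-fold apart (2.58e-08), and was the one detected on every array of both lines. Its WM115 arrays read 4.75 to 5.04, close to the lowest detected signal of 4.68 to 4.84 per array, with detection p of 0.0099 to 0.049. Its fold is therefore limited by background too. CLDN2 stood at 8.49 ± 0.46 and 4.57 ± 0.12, 15.2-fold apart (4.05e-07). For CLDN7 and CLDN2, 1 of 4 WM115 arrays detected the probe and the WM115 mean lay below the lowest detected signal, so these folds are set against background and are not measured ratios of transcripts.

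CLDN3, CLDN4 and OCLN were dim in Caco2 and had small gaps. CLDN3 stood at 5.65 ± 0.44 (SD, n = 4) in Caco2 and 4.67 ± 0.14 in WM115, 1.97-fold apart (limma adjusted p 0.000172). CLDN4 was at least 1.66-fold higher in Caco2 (6.74e-05), and the detected OCLN probe was also at least 1.66-fold higher (2.84e-05). Folds of probes this close to background understate the ratio of transcripts.

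The other genes of the junction were followed in 6 lists, of which 58 genes were tested. None of them was called between the gates of either line or in the difference between the lines by limma. At an unadjusted p under 0.05 there were 5 in Caco2, 7 in WM115 and 4 in the difference between the lines, against 7.90%, 5.03% and 6.21% of all named genes tested. The methods' t-test called 0 in either line. The test between the lines called 44 of the 58, where 60.3% of all named genes tested were called in either direction (30.4% higher and 29.9% lower in Caco2) and their median difference was 0.02 log2 units. The counts of each list below are to be read against these shares, and genes with signal in 1 line had entered the test through that line. The lists did not all run in the direction of the 7 genes. Of 6 other claudins tested, 1 was higher and 4 were lower in Caco2, with a median difference of -0.90 log2 units. CLDN23 was higher by 1.87 (SE 0.12, adjusted p 2.98e-06), whereas CLDN12, CLDN15 and CLDN14 gave -1.50, -1.16 and -1.12 and were detected on all 4 arrays of both lines. CLDN23 was detected on all 4 arrays of both lines as well. The values of CLDN14 are those of its brightest probe. Of its other probes, 1 was detected on no array, and 1 on all 4 WM115 arrays but on no Caco2 array. A further 9 claudins, among them CLDN5, CLDN8 and CLDN18, had a probe that was not detected on both arrays of any group.

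Among the other membrane proteins of the tight junction, 4 of 5 tested were higher in Caco2 and 1 was lower, with a median of 3.36 log2 units. MARVELD3, a relative of occludin, was at least 11.1-fold higher (limma adjusted p 2.16e-08), and CRB3, the epithelial Crumbs protein that helps set up the apical side, at least 9.32-fold (4.25e-08). CXADR, the coxsackie and adenovirus receptor, was 3.67 log2 units higher (1.47e-07). JAM3, a relative of F11R, went the other way, at least 16.9-fold lower in Caco2 (7.66e-09). Its 4 WM115 arrays read 8.60 to 9.18 on the log2 scale, and no Caco2 array detected it.

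Of 22 plaque and polarity proteins tested, 13 were higher and 4 lower in Caco2, with a median of 0.54 log2 units, against 30.4% higher and 29.9% lower among all named genes tested. CGN and CGNL1, the scaffolds cingulin and paracingulin, were higher by 3.58 and 3.31 (limma adjusted p 7.51e-08 and 8.7e-07), CGNL1 with 2 of 4 WM115 arrays detecting it, and LIN7A, a partner of the Crumbs complex, was at least 4.47-fold higher (4.58e-07). MPDZ, a scaffold with many PDZ domains that binds claudins, was at least 8.98-fold lower in Caco2 (1.04e-07), and PARD6G, one of the PAR6 polarity proteins, gave -3.33 log2 units (3.22e-08), with 2 of 4 Caco2 arrays detecting it. ARHGEF11, an activator of RhoA, gave -0.997 (0.000531).

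Of 14 partners and regulators of claudins tested, 8 were higher and 1 was lower in Caco2, with a median of 0.69 log2 units, so 9 of 14 were called where 60.3% of all named genes tested were. EPCAM, which binds CLDN7, was higher by 7.60 (limma adjusted p 3.5e-09) and was detected on 2 of 4 WM115 arrays. TSPAN8, a tetraspanin, was at least 179.5-fold higher (2.48e-09), and SPINT2, an inhibitor of the membrane protease ST14, at least 102-fold (3.05e-09). The tetraspanin CD9 gave -0.74 (0.000793).

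Transcription factors known to repress or activate epithelial junction genes were followed as well. Of 4 repressors tested, 3 were lower in Caco2 and 0 higher, with a median of -3.87 log2 units. SNAI2 was at least 35.4-fold lower (limma adjusted p 4.44e-09), ZEB2 at least 19.1-fold (8.7e-09) and TWIST1 at least 6.95-fold (4.6e-08), and none of the 3 was detected on any Caco2 array. SNAI1 was detected in both lines and gave -0.29 (0.115), and ZEB1 was detected on 0 of the 8 arrays and was not tested. Of 7 activators tested, 5 were higher in Caco2 and 0 lower, with a median of 1.47 log2 units, among them the intestinal factor CDX2 (at least 20.2-fold, 2.07e-08), OVOL2 (3.68 log2 units, 2.47e-06, with 2 of 4 WM115 arrays detecting it) and GRHL2 (at least 3.36-fold, 1.57e-06). The WM115 arrays of OVOL2 read from 4.57 to 5.90, the high array of sort 1 being the highest. KLF4 (-0.17) and GRHL1 (0.21) were not called. The E-box stretches printed for CLDN7, OCLN and TJP1 hold the letters that SNAI2 and ZEB2 are known to recognise, but no binding was measured here. The windows of CLDN1, CLDN2, CLDN3 and CLDN4, which were also higher in Caco2, held no E-box. A link between these factors and the 7 genes was not tested.

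**Figure D4:**
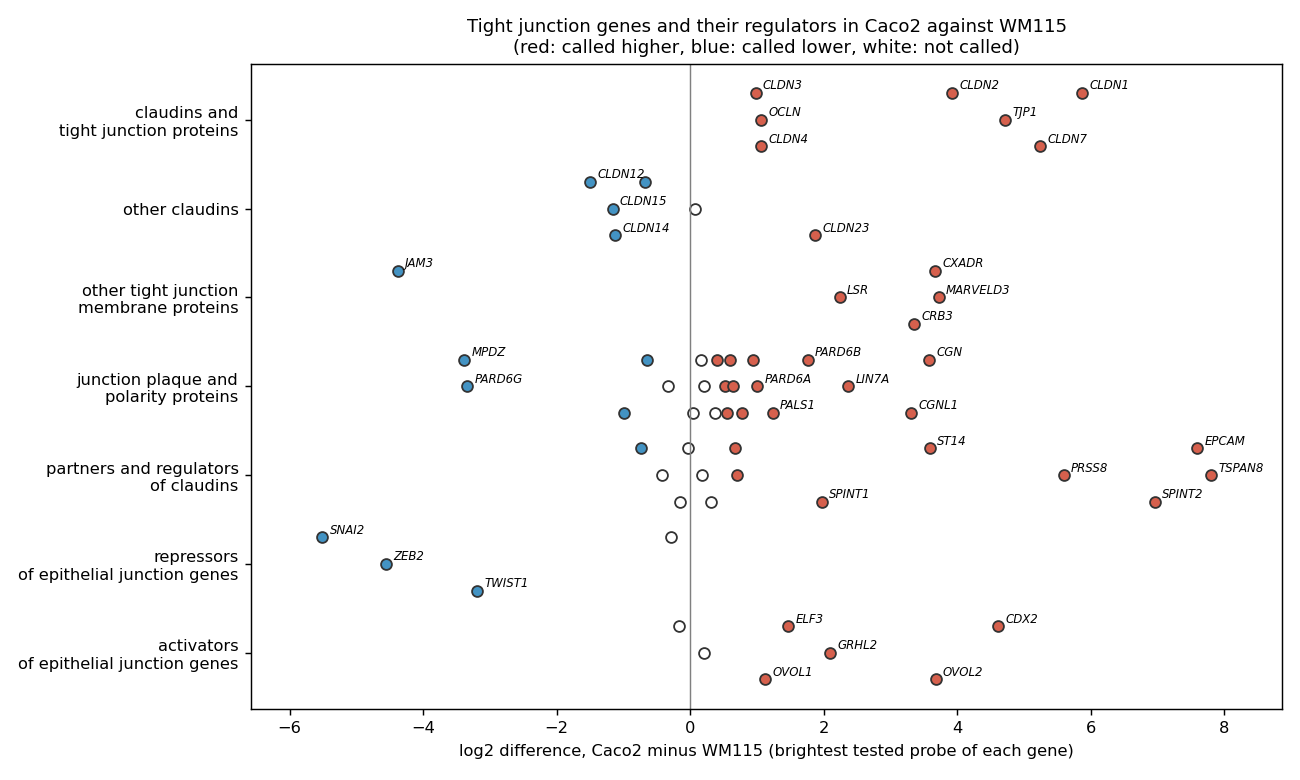
Log2 difference between Caco2 and WM115 (x axis) of each tested gene, by list (y axis; points are staggered only to keep them apart); red points were called higher in Caco2, blue lower and white neither. The 7 claudins and tight junction proteins lie between 0.98 and 5.87, whereas 4 of 6 other claudins, JAM3, MPDZ and PARD6G and 3 of 4 repressors lie below 0 and were called.

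Between the gates of Caco2 the list genes with the smallest p did not pass the test. Among the partners, PRSS8, a membrane protease of epithelia, read 10.14 and 10.60 on the log2 scale in the high cells and 9.93 and 9.67 in the negative cells. The difference was 0.57 (SE 0.19, limma adjusted p 0.424). TSPAN8 gave 0.48 (0.495) and ST14 gave -0.53 (0.634). LSR, a protein of the contacts between 3 cells, read 7.06 and 6.79 in the high cells and 7.44 and 7.34 in the negative cells. The difference was -0.46 (SE 0.16, adjusted p 0.468). CDX2 gave 0.46 (0.61), and the other claudins lay between -0.08 and 0.27. No list gene was as far apart in Caco2 as CLDN1.

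In WM115, CXADR was the list gene with the smallest p that had higher values in the AC133 high cells. Its log2 signal was 6.86 and 7.18 in the high cells and 5.93 and 6.04 in the negative cells, so the gates did not overlap, and the difference of 1.04 (SE 0.21) had a limma adjusted p of 0.362. The other 6 genes with an unadjusted p under 0.05 were JAM3, which gave -0.44 (0.908), the repressors ZEB2 and SNAI2, at -0.50 (0.841) and -0.44 (1), the activator KLF4, at -0.59 (1), the kinase ROCK2, at -0.54 (1), and CLDN20, at 0.45 (1). MYLK, the myosin light chain kinase that acts on junctional actin, gave -1.07 (SE 0.56, adjusted p 1). The WM115 negative array of sort 2, which stood apart, read 8.48 for MYLK, against 6.24 to 6.40 on the other 3. It was also the highest WM115 array for JAM3, ZEB2, KLF4 and ROCK2, but not for SNAI2, CLDN20 or CXADR. Without that array MYLK gave 0.02, and without the negative array of sort 1 it gave -2.16, with an adjusted p of 0.0023.

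For each of the 7 genes, the named genes with the most similar signal over the 8 arrays were sought after subtracting the mean of each line. The arrays share their sorts, so these correlations carry no test. CLDN1 ranged over 1.34 log2 units in Caco2 and 0.10 in WM115, CLDN4 over 0.42 and 0.09, and OCLN over 0.25 and 0.07, so for these 3 genes, not detected in WM115, the r describes mainly the 4 Caco2 arrays. EVL, TFPI and CPNE8 followed CLDN1, with Pearson r of 0.9995, 0.9967 and 0.9957. CASP8 came first for CLDN2 (0.9699), PCYT1A for CLDN3 (0.9841) and NF1 for CLDN4 (0.9765). C1D came first for CLDN7 (0.9887), FGA for OCLN (0.9875) and MAST2 for TJP1 (0.9881). CLDN7 ranged over 0.34 log2 units in Caco2 and 0.53 in WM115. Its WM115 negative array of sort 2, which stood apart, read 4.88, against 4.35 to 4.50 on the others, which did not detect it. The r of CLDN7 therefore leans on 1 array near background. None of the 21 genes so named was one of the other 6 claudins and tight junction proteins. With only 3 genes kept per member out of so many, that absence says nothing about shared behaviour. The highest r among so many genes over 8 arrays is also high by selection.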

How the data were processed

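Human bead arrays (HumanRef-8, version 2) were read for 2 arrays in each of 4 groups, from 500 ng of RNA and 750 ng of labelled product per the labels. The deposited file of each array holds an intensity per probe on a linear scale, summarised with BeadStudio 3 per the submitters' processing notes, with a detection p-value per probe that the deposited files give in steps of 1 in 708. The authors' joint table holds the intensity after their quantile normalization, with medians of 60.0. Of 22184 probes, 19715 carry 1 gene symbol, 2469 none and 0 several, in GEO's platform annotation; 19695 symbols were assigned through the gene number. All arrays share 1 slide. The files name no genome build.

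Intensity was background corrected (normexp, negative controls inferred from detection p, offset 16), quantile normalized and taken to log2 with limma 3.58.1 in R 4.3.3. Probes with a detection p under 0.05 on both arrays of at least 1 group were tested, 13844 probes for 11214 named genes; a gene's brightest tested probe stands for it in lists. Limma fits on all 8 arrays, with 1 mean per group (4 residual and 4.35 prior degrees of freedom), were two-sided, with Benjamini-Hochberg adjustment over all tested probes and a threshold of 0.05. The p-values measure the spread between sorts, which the labels call biological duplicates. For a probe not detected in 1 of the lines, part of that spread is the scatter of background. With 2 arrays against 2, the smallest exact permutation p is 0.333. Beads numbered 41 to 42 per probe (median), with a bead standard error of 4.09% to 4.51% of the signal; the number of arrays limits precision. Folds "at least" set the bright group against the lowest detected signal of each dim array. The labels pair gates by sort number, and deviations from group means correlated between arrays of the same sort at 0.28 in Caco2 and 0.18 in WM115.

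The genes, lists and tests were chosen with earlier results of these data known. Named genes are all probes of the 9; in each list, genes past the threshold or otherwise up to 3 with the smallest p within a line or between lines' differences, and up to 3 per direction with the largest difference in Caco2 minus WM115; PROM1; and the 3 genes most correlated with each of the 7.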

Additional observations from a re-analysis of the deposited data

How the results depend on the processing

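Over 110 named differences, 1995 alternatives were run: 1962 kept direction and call, 13 lost the call, 1 gained it and 19 changed sign. Of the claudins and tight junction proteins, 1 was called in Caco2 as reported; 0 were called under median scaling, with the 4 arrays of the line alone, with the replicate block (CLDN1 adjusted p 0.0551, with 56 probes called in all against 107), with the methods' t-test (CLDN1 adjusted p 0.671) and where probes had to be detected on all 8 arrays, which left only TJP1. Leaving out 1 array gave 0 to 1. In Caco2 minus WM115 all 7 were called under every alternative, leaving out 1 array included (7 to 7), except that the filter on all 8 arrays left TJP1 alone, 1 call. In WM115 and in the difference between the lines 0 were called under every alternative run, leaving out 1 array included; the t-test gives no value for the latter. The sort block changed no other call of the 7 genes. PROM1 lost its call with the t-test in each line and between the lines, and in WM115 with the line alone (adjusted p 0.114).

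The uncalled differences that changed sign were -0.18 to 0.35 as reported, except MYLK in WM115, at -1.07. CLDN3 in WM115 was -0.01, and 0.0123 under median scaling. Leaving out 1 array, it ranged from -0.18 to 0.15. Ranges so obtained were -0.18 to 0.16 for CLDN7 in Caco2, -0.44 to 0.0868 for CLDN7 in WM115, -0.10 to 0.43 for CLDN7 and -0.0897 to 0.79 for CLDN2 in the difference between lines, and -0.0649 to 0.23 for TJP1 in WM115. In Caco2 they were -0.26 to 0.0256 for MARVELD3, -0.0358 to 0.15 for ZEB2, -0.0455 to 0.0758 for TWIST1 and -0.38 to 0.18 for OVOL1, and in WM115 -0.0334 to 0.18 for LSR, -2.16 to 0.0241 for MYLK and -0.0405 to 0.20 for ELF3. The cause was not tested.

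Over all 13844 probes, 107 were called in Caco2, 41 under median scaling, 1 with the line alone, 0 with the t-test and 8 to 80 without 1 array. In WM115 3 were called and in the difference between lines 9; without the WM115 negative array of sort 1 these became 249 and 153. Dim probes (CLDN3, CLDN4, OCLN) limit what can be read of those genes.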
